A study of Drosophila melanogaster with 10 samples.

Results

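SREBP and the lipid synthesis genes around it were followed in SL2 cells after loss of Tip60. SL2 is a Drosophila melanogaster line of embryonic origin with hemocyte character, and Tip60 is the histone acetyltransferase of a chromatin remodelling complex. The 10 genes were chosen by name: SREBP and its escort SCAP, the fatty acid enzymes ATPCL, AcCoAS, ACC, FASN1 and Desat1, and the phospholipid enzymes eas, Pcyt1 and bbc. Every probe set annotated to 1 of them was taken, which gave 1 probe set per gene, 10 of the 18769 fly probe sets on the array, or 10 of 11983 genes with a probe set of their own. The Tip60 RNAi cells had received dsRNA against Tip60 on 6 arrays, 2 for each of 3 dsRNAs named by their position in Tip60 (1321-1618, 190-807 and 603-1116). The mock-treated cells had received dsRNA against eGFP, which has no fly target, on 4 arrays. All cells of both treatments were grown at 26°C with fetal calf serum, given 10 µg of dsRNA and harvested after 5 days. The dsRNAs 190-807 and 603-1116 overlap in the Tip60 sequence, and the knockdown was partial. The titles name the eGFP arrays as 2 sets of 2 and number the Tip60 RNAi arrays within each dsRNA, without saying what sets and numbers stand for; replicate numbers here follow the order of deposition. Whether the arrays of a treatment stand for separate cultures is not in the labels, so each p-value speaks only for the variation among these arrays, part of which may be technical.

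SREBP is a transcription factor of the basic helix-loop-helix leucine zipper class that is made as a precursor in the membrane of the endoplasmic reticulum. SCAP carries it to the Golgi, where the site-1 and site-2 proteases (S1P and S2P) release the part that enters the nucleus and activates genes of fatty acid synthesis. Flies make no sterols, and in Drosophila cells, SL2 among them, the cleavage is held back by phosphatidylethanolamine rather than by cholesterol. The pathway therefore links the enzymes that build fatty acids with those that build phospholipids.

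Values are probe set signals in the arbitrary units of the array software, scaled by the authors to the same trimmed mean of 1000 on every array. They compare 1 probe set between samples and do not rank different genes. The Tip60 signal was 307 ± 71.5 (SD, n = 6) on the Tip60 RNAi arrays, against 1239 ± 103 (n = 4) on the eGFP arrays, which is 24.3% of the control on the log2 scale (log2 change −2.04, SE 0.15, limma adjusted p = 4.77e-08). The 10 hemocyte markers were all above the signal filter, as fits the labelled line. Their summed signal was 216870 to 270740 on the Tip60 RNAi arrays and 140890 to 164060 on the eGFP arrays. All 10 were called higher with the deposited scaling, 2 after centring each array on its median and 1 after scaling to spike-in RNAs. Of all 11261 probe sets tested 2002, 401 and 227 were called higher, in that order. Markers of the fat body, the main lipid-storing tissue of the fly, summed to 428 to 776.6 on the Tip60 RNAi arrays and 290.8 to 456.3 on the eGFP arrays. Fbp1, Fbp2 and Yp1 lay under the filter, and 0 of the 3 tested markers, Lsp2, Yp2 and Yp3, were called. The listed Lsp1alpha, Lsp1beta and Lsp1gamma had no probe set. Neuron markers summed to 821.4 to 1143.9 on the Tip60 RNAi arrays and 900.3 to 977.6 on the eGFP arrays, with 1 of 2 tested called higher, and muscle markers to 67.9 to 174.7 on the Tip60 RNAi arrays and 52.4 to 118.4 on the eGFP arrays, with 0 tested. The part of these shifts in the results below was not tested. Replicate 1 of dsRNA 190-807 stood apart from all other arrays on the second principal component, at 57.0 against −15.7 to 3.6.

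The set was split. SREBP itself, the ethanolamine kinase gene eas and the phosphocholine cytidylyl transferase gene Pcyt1 rose after Tip60 RNAi by 1.21 to 1.31-fold in the deposited scaling, a direction that turned when arrays were set to their median or to spike-in RNAs, while SCAP and the phosphotransferase gene bbc fell to 88.8% and 85.1% of the eGFP level. The 4 tested enzymes of fatty acid synthesis and desaturation, AcCoAS, ACC, FASN1 and Desat1, did not pass the test in the deposited scaling, with log2 changes between −0.13 and 0.09. All 4 were called lower under both of those other scalings, which called 5460 and 6766 of all 11261 probe sets tested lower. ATPCL lay under the filter and was not tested. In all, 3 of 9 tested genes rose and 2 fell, where 17.8% and 16.7% of all 11261 probe sets tested did so. All 9 are bright: they lie among the 2815 brightest probe sets tested, of which 56.2% changed, so 5 of 9 is near the share among bright probe sets. The median log2 change of the 9 was 0.03, beside 0.08 over all probe sets tested. The 2 falls are the weaker calls, since both were called in only 2 of the 10 fits without 1 array, whereas all 3 rises were called in each. A change was called at an adjusted p under 0.05 (limma, Benjamini-Hochberg over all probe sets tested), and in bulk RNA fewer cells with a transcript and less of it per cell cannot be told apart.

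**Figure D1:**
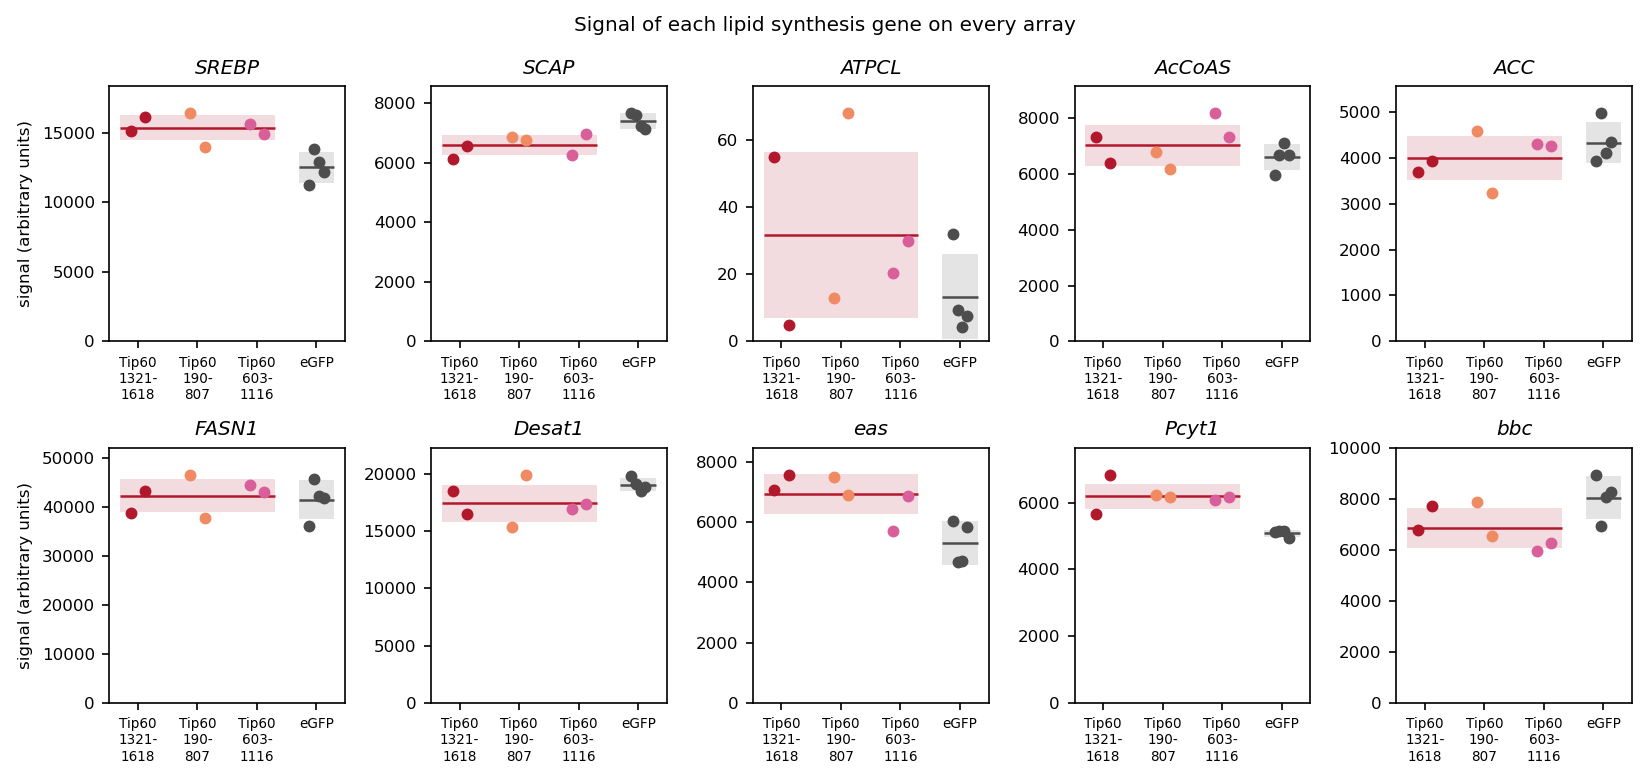
Signal of the 10 genes (vertical axis, arbitrary units, starting at 0) on each array; points are single arrays by dsRNA, lines are the means of the 6 Tip60 RNAi arrays and of the 4 eGFP arrays, and bands are ± 1 SD. SREBP and Pcyt1 lie above and SCAP below all eGFP arrays, FASN1 overlaps between treatments, and ATPCL stays under 68 units throughout.

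SREBP had signals of 15179 and 16174 with dsRNA 1321-1618, 16422 and 14022 with dsRNA 190-807, and 15658 and 14933 with dsRNA 603-1116, against 11228, 13847, 12925 and 12180 on the eGFP arrays. Every Tip60 RNAi array lay above every eGFP array, though the lowest of them, replicate 2 of dsRNA 190-807, exceeded the highest eGFP array only narrowly. Such a complete separation was found for 25.4% of the probe sets tested, with the Tip60 RNAi arrays all above in 12.4% and all below in 13.1%. The means were 15400 ± 881 (SD, n = 6) after Tip60 RNAi and 12550 ± 1112 (n = 4) after eGFP RNAi, a 1.23-fold rise (log2 change 0.30, SE 0.07, 95% interval 0.15 to 0.44, adjusted p = 0.00284). The rise kept its call when any 1 array was left out, with log2 changes of 0.25 to 0.35 and adjusted p of 0.00165 to 0.0134.

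SCAP, the cholesterol-sensing escort in mammals and the carrier of SREBP in flies as well, went the other way. Its signals were 6122 and 6556 with dsRNA 1321-1618, 6860 and 6776 with dsRNA 190-807, and 6251 and 6955 with dsRNA 603-1116, against 7662, 7623, 7228 and 7128 on the eGFP arrays. All 6 lay below all 4, by a small margin. The fall was to 88.8% of control (log2 change −0.17, SE 0.06, 95% interval −0.29 to −0.05, adjusted p = 0.0288). The adjusted p exceeded 0.05 in 4 of the 10 fits with 1 array left out: those without eGFP replicate 1 (0.0817) or 2 (0.0807), and without replicate 1 of dsRNA 1321-1618 (0.0634) or of dsRNA 603-1116 (0.0618).

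Of the other processing genes, the protease gene S2P also fell. It had a lowest, median and highest signal of 1502, 1600 and 1697 on the Tip60 RNAi arrays, against 2077, 2126 and 2170 on the eGFP arrays, with no overlap. This was 75.4% of control (log2 change −0.41, SE 0.06, adjusted p = 7.19e-05), with log2 changes between −0.42 and −0.39 when any 1 array was left out. S1P, the protease that makes the preceding cut, averaged 857 ± 69.3 after Tip60 RNAi and 921 ± 66.2 after eGFP RNAi and did not pass the test (log2 change −0.11, 95% interval −0.29 to 0.08). With the deposited scaling the gene of the precursor rose while 2 of the 3 genes that move or cleave its product fell. Of all probe sets tested 17.8% rose and 16.7% fell. Among the 2815 brightest, which hold SREBP and SCAP, 682 rose and 900 fell. The log2 change of SREBP turned to −0.207 after median centring and −0.452 after scaling to spike-in RNAs. The SCAP fall was lost in 4 of the 10 fits without 1 array, whereas S2P kept its call in all 10.

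**Figure D2:**
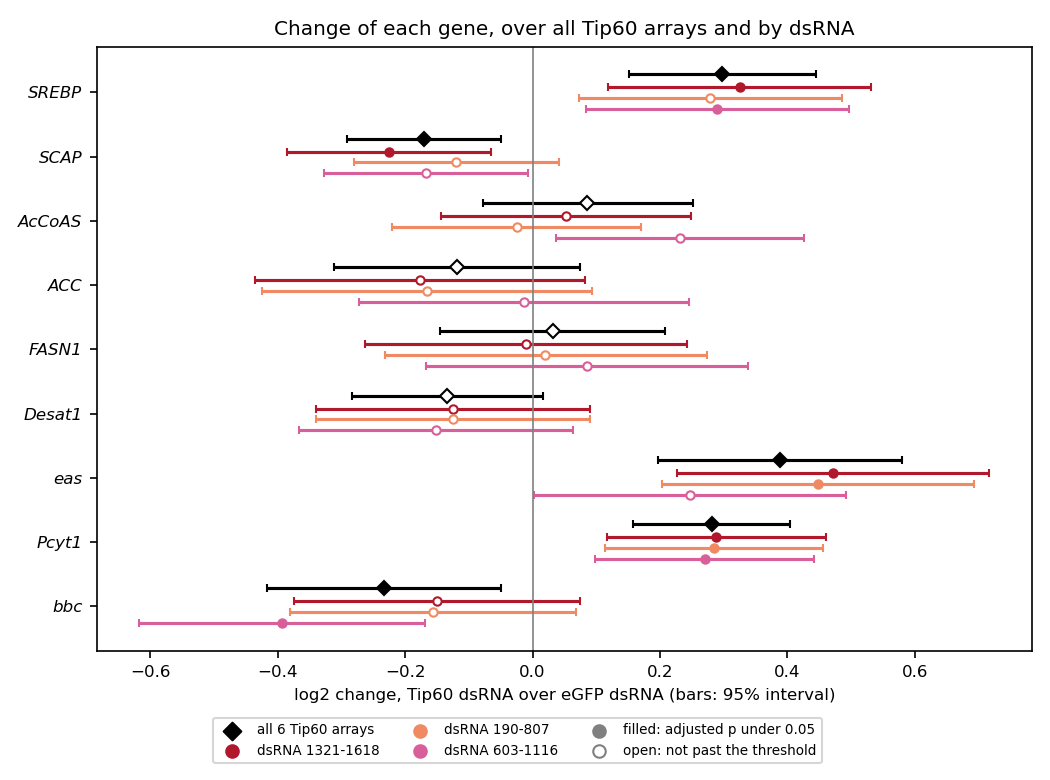
Log2 change of the 9 tested genes, Tip60 dsRNA over eGFP dsRNA (horizontal axis), over all 6 Tip60 RNAi arrays (black diamonds) and for each dsRNA (coloured circles, n = 2 arrays each), with 95% intervals; filled symbols passed an adjusted p of 0.05. SREBP, eas and Pcyt1 lie right of 0 with every dsRNA, SCAP and bbc left of it.

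Of the enzymes that make and desaturate fatty acids, 0 of 4 tested passed the test with the deposited scaling. AcCoAS, which makes acetyl-CoA from acetate, had 7339 and 6380 with dsRNA 1321-1618, 6792 and 6194 with dsRNA 190-807, and 8180 and 7334 with dsRNA 603-1116, against 5950, 6685, 7111 and 6700 on the eGFP arrays. The groups overlapped and the log2 change was 0.09 (95% interval −0.08 to 0.25, adjusted p = 0.423). ACC, the carboxylase that makes malonyl-CoA and commits carbon to fatty acids, had 3704 and 3944, 4582 and 3235, and 4299 and 4259 with the 3 dsRNAs in that order, against 3938, 4974, 4098 and 4338 on the eGFP arrays. Both the highest and the lowest Tip60 RNAi arrays came from dsRNA 190-807, and the log2 change was −0.12 (95% interval −0.31 to 0.07, adjusted p = 0.34).

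FASN1, the fatty acid synthase, had overlapping signals in both treatments. It had 38846 and 43244 with dsRNA 1321-1618, 46544 and 37658 with dsRNA 190-807, and 44547 and 43066 with dsRNA 603-1116, against 36052, 45658, 42185 and 41835 on the eGFP arrays. The log2 change was 0.03 (95% interval −0.15 to 0.21, adjusted p = 0.805), which leaves room for folds from 0.904 to 1.16. The value depended on the scaling: quantile normalization gave −0.24 and a called fall (adjusted p = 0.00121).

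Desat1, the delta-9 desaturase that makes monounsaturated fatty acids, averaged 17430 ± 1599 after Tip60 RNAi and 19070 ± 552 after eGFP RNAi. Its 6 Tip60 RNAi signals were 18488, 16528, 15338, 19923, 16928 and 17396, against 19796, 19133, 18497 and 18840 on the eGFP arrays, and replicate 2 of dsRNA 190-807 exceeded them all. The log2 change of −0.13 (95% interval −0.28 to 0.02) had an adjusted p of 0.163, and quantile normalization turned it into a called fall (−0.205, adjusted p = 0.0247). The intervals of these 4 enzymes end below the SREBP estimate, 0.30 on the log2 scale, in these arrays as scaled. The interval of SREBP itself, 0.15 to 0.44, overlaps those of AcCoAS and FASN1 and lies above those of ACC and Desat1. With dsRNA 603-1116 alone the intervals of AcCoAS (0.04 to 0.43) and FASN1 (−0.17 to 0.34) reach past 0.30. Whether the enzymes differ from SREBP was not tested.

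ATPCL, the citrate lyase that supplies cytosolic acetyl-CoA, gave no usable measurement. Its signals of 4.73 to 67.8 on the Tip60 RNAi arrays and 4.21 to 32.0 on the eGFP arrays overlapped and varied 14.3-fold and 7.6-fold within the treatments. Only the highest Tip60 RNAi arrays, at 54.8 and 67.8, stood clear of the filter, a mean signal of 34.5.

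Some of these genes were lowest on the same arrays, a pattern noticed in the data and not tested. The lowest Tip60 RNAi array was replicate 2 of dsRNA 190-807 for SREBP, AcCoAS, ACC and FASN1, and the lowest eGFP array was replicate 1 for the same 4 genes. The highest array of SREBP, ACC and FASN1 was replicate 1 of dsRNA 190-807 among Tip60 RNAi and replicate 2 among eGFP. Desat1 had its highest signals, 19923 and 19796, on the arrays where those 4 were lowest. The order was not shared by the whole set: SCAP, eas and bbc were also highest on eGFP replicate 1, and eas and bbc lowest on eGFP replicate 2, while among the Tip60 RNAi arrays these 3 genes were lowest on other arrays than replicate 2 of dsRNA 190-807. These 2 arrays also had the lowest mean log2 signal of the hybridization spike-ins, bacterial and phage RNAs added after labelling, in their treatment: 13.01 on the Tip60 RNAi arrays, where the range was 13.01 to 13.66, and 12.33 on the eGFP arrays, where it was 12.33 to 13.09. Their part in the pattern was not tested. Without both arrays SREBP was higher by 0.27 (adjusted p = 0.00604) and FASN1 had a log2 change of −0.001 (adjusted p = 0.996); the falls of SCAP (−0.16, adjusted p = 0.0792) and bbc (−0.17, adjusted p = 0.218) lost their calls.

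The 3 enzymes of phospholipid assembly were all called with the deposited scaling, eas and Pcyt1 higher and bbc lower. All 3 are among the 2815 brightest probe sets tested, of which 56.2% were called. After centring arrays on their median, eas (−0.116, limma adjusted p = 0.55) and Pcyt1 (−0.225, adjusted p = 0.17) were not called. The bbc fall was called there (−0.738). The gene eas encodes ethanolamine kinase, which starts the synthesis of phosphatidylethanolamine. It had 7080 and 7577 with dsRNA 1321-1618, 7510 and 6905 with dsRNA 190-807, and 5704 and 6883 with dsRNA 603-1116, against 6043, 4668, 4710 and 5850 on the eGFP arrays. Replicate 1 of dsRNA 603-1116 fell among the eGFP arrays and the other 5 lay above them. The rise was 1.31-fold (log2 change 0.39, SE 0.09, 95% interval 0.20 to 0.58, adjusted p = 0.00301) and held without any 1 array.

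Pcyt1 encodes CTP-phosphocholine cytidylyl transferase, the regulated step of phosphatidylcholine synthesis. It had 5646 and 6833 with dsRNA 1321-1618, 6228 and 6160 with dsRNA 190-807, and 6083 and 6182 with dsRNA 603-1116, against 5106, 5152, 5160 and 4933 on the eGFP arrays. The eGFP arrays were tight (5088 ± 106, n = 4) and every Tip60 RNAi array stood above them. The rise was 1.21-fold (log2 change 0.28, SE 0.06, adjusted p = 0.00126), and the adjusted p stayed between 0.000776 and 0.00603 without any 1 array.

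The gene bbc encodes a phosphotransferase that joins the activated head group to diacylglycerol. It had 6758 and 7700 with dsRNA 1321-1618, 7877 and 6546 with dsRNA 190-807, and 5942 and 6249 with dsRNA 603-1116, against 8929, 6927, 8046 and 8242 on the eGFP arrays. The treatments overlapped through eGFP replicate 2. The fall to 85.1% of control (log2 change −0.23, SE 0.09, adjusted p = 0.0475) was marginal: 7 of the 10 fits without 1 array lost it, with adjusted p up to 0.162 without eGFP replicate 1. Without dsRNA 603-1116 it was −0.15 (adjusted p = 0.23).

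The 3 dsRNAs were then compared with the same 4 eGFP arrays, so these contrasts share their control. All 9 genes are bright, and the share of calls among bright probe sets was not computed for single dsRNAs. Over all Tip60 RNAi arrays that share was 56.2%, beside 34.5% of all probe sets tested. With dsRNA 1321-1618 4 of the 9 genes changed, where 23.7% of all probe sets did, 11.1% upward and 12.6% downward: SREBP (log2 change 0.325), SCAP (−0.225), eas (0.47) and Pcyt1 (0.29). With dsRNA 190-807, where 22.1% of all changed, 10.9% upward and 11.3% downward, eas (0.45) and Pcyt1 (0.28) rose, and SREBP had 0.28 at an adjusted p of 0.0511. With dsRNA 603-1116, where 27.2% of all changed, 13.5% upward and 13.7% downward, SREBP (0.29) and Pcyt1 (0.27) rose and bbc fell by 0.39, while eas had 0.25 at an adjusted p of 0.127. The differences among dsRNAs themselves were not past the test for any of the 9 genes (limma F-test, 0 called, 0.0355% of all probe sets called). The unadjusted F-test p was under 0.05 for 0 of the 9 genes, the lowest being 0.0754 for AcCoAS. It was under 0.05 for 1025 of all 11261 probe sets tested. Each group of 2 arrays rests on its replicates, and calls given with dsRNAs 1321-1618 and 603-1116 depended on both arrays of the pair. Without either array that dsRNA has no replicate, and calls over all probe sets can be lost as well. Whether the loss is particular to these 9 genes was not tested.

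The rest of lipid metabolism was described from lists of 82 further genes, of which 71 had a probe set and 57 were tested. Of these 11 rose and 17 fell, beside 17.8% and 16.7% of all probe sets tested, with a median log2 change of −0.05. The shares over all probe sets depended on brightness. Of the 2815 brightest tested 682 rose and 900 fell, and of the 2815 next in brightness 437 rose and 753 fell. Of the 2816 dimmest 259 rose and 10 fell. Whether the 57 genes differ from probe sets of like brightness was not tested. The count of rises among the 57 genes was 6 without eGFP replicate 3 and 7 without dsRNA 1321-1618. The largest log2 changes among the called genes were those of Fatp3, Desat2 and CG9743 upward and of Agpat2, CG2201 and Arc42 downward. In the deposited scaling dim probe sets leaned upward. On the log2 scale the median was 0.487 for the 2816 dimmest tested and −0.028 for the 2815 brightest, which hold CG9743. Fatp3 and Desat2 lie in the 2815 next above the dimmest, where the median was 0.161, with 624 rises and 220 falls. The part of this lean in their rises was not tested.

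Among 10 further phospholipid genes 2 rose and 5 fell (median −0.20). CG2201, annotated by homology as a choline or ethanolamine kinase, is thus placed at the step of eas and fell to 57.3% of control. It had 1539 ± 193 after Tip60 RNAi and 2672 ± 189 after eGFP RNAi (log2 change −0.80, SE 0.09, adjusted p = 3.84e-06). CG33116, annotated as an ethanolamine phosphotransferase like bbc, fell by 0.50, and PGS1, which makes the precursor of the mitochondrial lipid cardiolipin, by 0.40. Pcyt2, a further phosphocholine cytidylyl transferase gene in flies, rose by 0.65 with Pcyt1 (adjusted p = 0.00185), and the phosphatidylinositol synthase gene Pis rose by 0.24. The Pis call was lost in 5 of the 10 fits without 1 array.

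**Figure D3:**
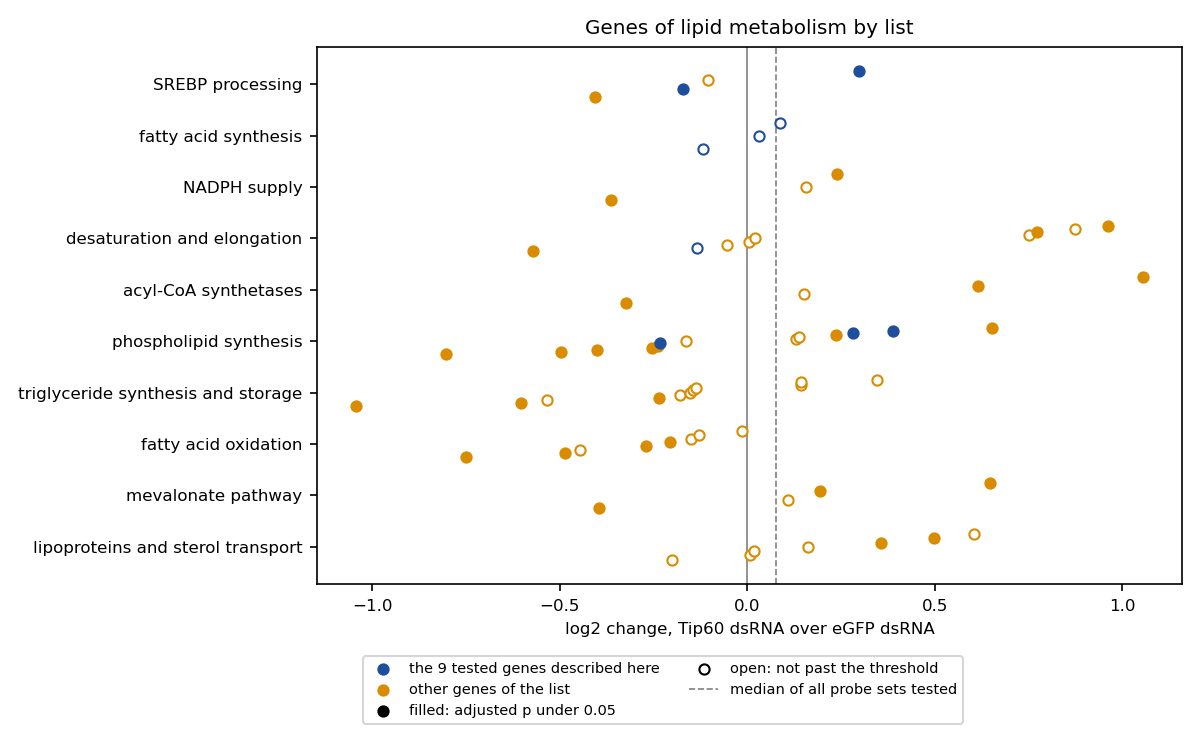
Log2 change, Tip60 dsRNA over eGFP dsRNA (horizontal axis), of each tested gene of 10 lists of lipid metabolism (rows), blue for the genes described here and orange for the others; filled points passed an adjusted p of 0.05 and the dashed line is the median of all probe sets tested. Triglyceride genes and fatty acid oxidation genes hold filled points only left of 0.

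Of 8 further genes of desaturation and elongation 2 rose and 1 fell. The desaturase family gene CG9743 rose 1.71-fold, with a lowest, median and highest signal of 4875, 5051 and 5460 on the Tip60 RNAi arrays, against 2691, 3077 and 3177 on the eGFP arrays (log2 change 0.77, SE 0.06, adjusted p = 1.27e-07). The groups lay far apart in the deposited scaling. The call was lost after centring arrays on their median (0.267, limma adjusted p = 0.108) and after scaling to spike-in RNAs (0.022, adjusted p = 0.923). Desat2 rose by 0.96 from a dim signal, 144 ± 30.4 after Tip60 RNAi and 81.6 ± 43.4 after eGFP RNAi, and lost its call in 7 of the 10 fits without 1 array and after quantile normalization (adjusted p = 0.222). Hacd2, a dehydratase of the elongation cycle, fell by 0.57 (adjusted p = 0.000114).

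Of 4 acyl-CoA synthetase genes 2 rose and 1 fell. Fatp3 rose 2.08-fold (225 ± 32.7 after Tip60 RNAi, 112 ± 35.4 after eGFP RNAi, adjusted p = 0.00179) and hll, the heimdall gene, by 0.62 on the log2 scale. The hll call was lost in 5 of the 10 fits without 1 array and after quantile normalization (0.26, adjusted p = 0.417). The related bubblegum gene bgm fell by 0.32, at an adjusted p of 0.0807 once eGFP replicate 2 was left out. Of 3 genes that supply NADPH, the reductant of fatty acid synthesis, the malic enzyme gene Men rose by 0.24 and the isocitrate dehydrogenase gene Idh fell by 0.36. Leaving out eGFP replicate 3 cost Men its call (adjusted p = 0.0521).

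Of 11 genes for making and storing triglyceride 0 rose and 3 fell, and after quantile normalization 1 rose and 4 fell. The count of rises was also 1 without replicate 2 of dsRNA 190-807, and without that dsRNA. Lsd-2, a perilipin of lipid droplets, lay under the filter and was named after its values were seen: it had 58.2 ± 32.0 after Tip60 RNAi and 14.5 ± 17.9 after eGFP RNAi, with overlap, and with no filter it was called higher (log2 change 2.54, adjusted p = 0.0296). Agpat2, an acyltransferase that makes phosphatidic acid, had 617 ± 109 after Tip60 RNAi and 1261 ± 165 after eGFP RNAi, a fall to 48.5% of control (log2 change −1.04, SE 0.13, adjusted p = 1.14e-05). The diacylglycerol acyltransferase gene mdy fell by 0.60 and Gpat4, which adds the initial acyl chain to glycerol phosphate, by 0.24. Of 8 genes of fatty acid oxidation 0 rose and 4 fell, beside 17.8% and 16.7% of all 11261 probe sets tested. The count of falls was 3 after quantile normalization and with no filter, and ran from 3 to 6 without any 1 array. The fall of the carnitine palmitoyltransferase gene CPT2 (−0.205) was marginal (limma adjusted p = 0.0476). Arc42 fell by 0.75, the peroxisomal oxidase gene Acox57D-p by 0.49 and wal, the alpha subunit of electron transfer flavoprotein, by 0.27, while the carnitine palmitoyltransferase gene whd had a log2 change of −0.01.

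The mevalonate pathway, which flies use for isoprenoids and not for sterols, had 2 of 4 genes higher and 1 lower. The geranylgeranyl diphosphate synthase gene qm rose by 0.65 (2360 ± 166 after Tip60 RNAi, 1503 ± 37.8 after eGFP RNAi) and Hmgs by 0.20, while the farnesyl diphosphate synthase gene Fpps fell by 0.40. The Hmgs call was lost in 7 of the 10 fits without 1 array. Of 7 genes for lipoproteins and sterol transport the lipid transfer particle gene Apoltp rose by 0.50 and the sterol-binding protein gene Npc2a by 0.36, and 0 fell.

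The 5 genes whose log2 signals, each minus its own eGFP mean, ran closest to SREBP over the 10 arrays were ERp60, AOX1, iPLA2-VIA, Hel89B and Su(Tpl), out of 9110 probe sets with 1 gene. Their root mean square differences from SREBP on the log2 scale were 0.047 for ERp60, 0.055 for AOX1, 0.067 for iPLA2-VIA, 0.068 for Hel89B and 0.071 for Su(Tpl). Their log2 changes ran from 0.28 (AOX1) to 0.38 (Su(Tpl)).

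The log2 changes above are given with the authors' scaling, and several depend on it. The poly-A spike-ins, bacterial RNAs added before labelling, had a mean log2 signal of 9.07 to 9.61 after Tip60 RNAi and 8.36 to 8.78 after eGFP RNAi, a difference of 0.75, and the median fly signal was 78.6 to 110.1 there against 55.6 to 72.1 on the eGFP arrays. Centring the arrays on their median lowered every log2 change by a constant, so that the median over all probe sets tested was −0.43, and scaling to the poly-A spike-ins gave −0.67. Under these SREBP read −0.21 and −0.45, eas −0.12 and −0.36, and Pcyt1 −0.225 and −0.47, and 0 of the 9 genes and 0 of the 57 other lipid genes rose. The fatty acid enzymes were called lower under both: AcCoAS read −0.42 (adjusted p = 0.00422) and −0.66 (0.00016), ACC −0.62 (0.000133) and −0.87 (7.33e-07), FASN1 −0.47 (0.00112) and −0.72 (0.000109), and Desat1 −0.64 (0.000134) and −0.88 (8.46e-07). SCAP was called lower under all 4 scalings, but median centring and poly-A scaling called 5460 and 6766 of all 11261 probe sets tested lower. With no filter SCAP lost its call (limma adjusted p = 0.0517). Quantile normalization, which does not shift all changes alike, left SREBP (0.26), Pcyt1 (0.29) and eas (0.40) above the other 6 genes. Which scaling is nearer to amounts per cell was not tested.

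**Figure D4:**
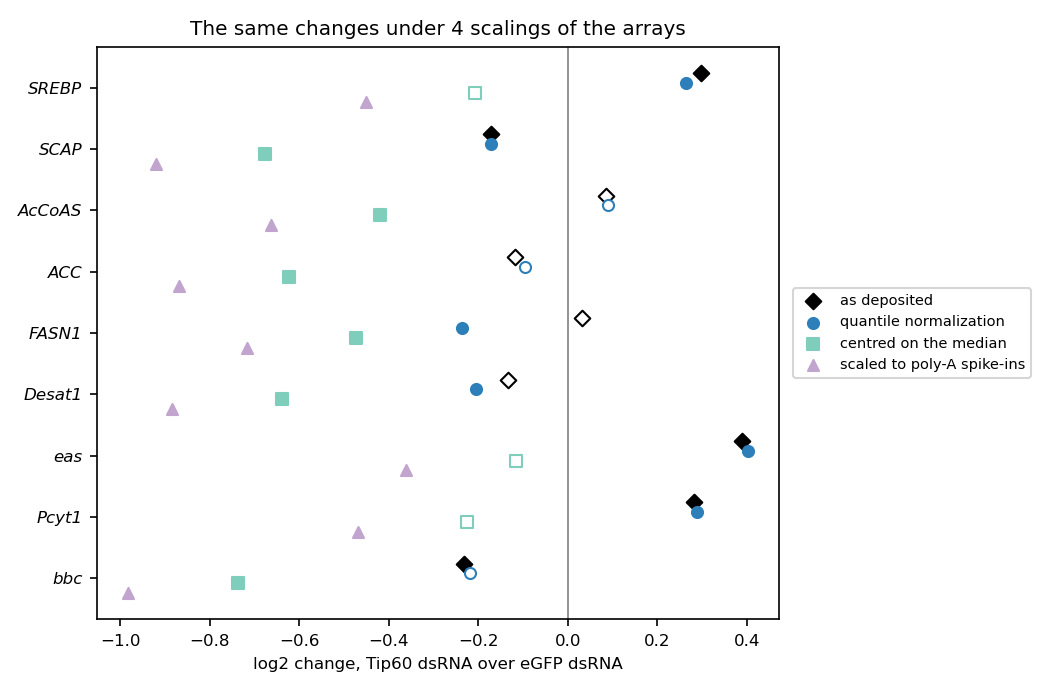
Log2 change, Tip60 dsRNA over eGFP dsRNA (horizontal axis), of the 9 tested genes under the deposited scaling, quantile normalization, centring on the array median and scaling to the poly-A spike-ins; filled symbols passed an adjusted p of 0.05. SREBP, eas and Pcyt1 lie right of 0 as deposited and after quantile normalization and left of it under the other two.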

How the data were processed

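Each of the 10 samples has 1 Affymetrix array, deposited as linear intensity per probe set and made with GCOS 1.4 per the submitters' processing notes. For background correction and probe summary, the method is not stated in the labels or headers. The authors had scaled the arrays, since from the values each 2% trimmed mean over 18952 probe sets is 1000. Signals were taken to log2 with no further scaling. After 183 control probe sets were set aside, the 11261 of 18769 fly probe sets at or above the 40th percentile of mean log2 signal (34.5) were tested with limma 3.58.1 in R 4.3.3 (lmFit, eBayes with an intensity trend, Benjamini-Hochberg adjustment), 6 arrays against 4. Each dsRNA was set against eGFP, and the dsRNAs against each other by an F-test, in a second fit with a mean for each of 4 groups. The number of arrays limits the precision.

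Names came from the platform annotation, updated by Entrez identifier through RefSeq (Release 6 plus ISO1 MT); 13544 of 13647 probe sets with 1 gene matched, and 402 with several genes were not named. Each listed gene entered by its brightest probe set. Probe sequences were not used, so binding to paralogs was not screened. Genes outside the 10 were named by rule: up to 3 called risers and 3 called fallers per list, and the 5 genes nearest to SREBP. S1P, CPT2, whd, Lsd-2 and the marker genes were named besides, after their values were seen. Members and lists were chosen with earlier results of these data known. Alternatives were other scalings, filters, variance priors, designs and left-out arrays; leaving out the array with the lowest hybridization spike-ins in each treatment was chosen after seeing the data.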

Additional observations from a re-analysis of the deposited data

Results flagged for a closer look

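Among 22 checks of the signals of the 10 genes and Tip60, each within the 6 Tip60 RNAi or the 4 eGFP arrays, 1 array stood far from the others by Dixon's ratio on the log2 scale: eas on replicate 1 of dsRNA 603-1116, with a signal of 5704.4 and a gap of 0.662 of the log2 range, above the critical value for its group size. Chance flags about 1 in 20 such groups. Without that array eas was higher by 0.44 on the log2 scale.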

How the results depend on the processing

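The rises of SREBP, eas and Pcyt1 kept direction and call after quantile normalization, under both other filters, in the designs tried and without any 1 array or any 1 dsRNA. They did not keep them under median centring or poly-A spike-in scaling, which lower every log2 change by a constant. In that order SREBP had −0.207 and −0.452, eas −0.116 and −0.361, Pcyt1 −0.225 and −0.469, AcCoAS −0.419 and −0.664, FASN1 −0.473 and −0.718, Apoltp −0.008 and −0.253, Hmgs −0.31 and −0.555, Men −0.267 and −0.512, Npc2a −0.15 and −0.394, and Pis −0.269 and −0.514. With poly-A scaling alone hll had −0.135, Pcyt2 −0.097 and qm −0.102. FASN1 also changed sign after quantile normalization (−0.237), without eGFP replicate 1 (−0.033, in a range up to 0.08 without any 1 array) and without the array with the lowest hybridization spike-ins in each treatment (−0.001), for which the cause was not tested.

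Over all probe sets the deposited scaling called 2002 higher and 1883 lower, median centring 401 and 5460, and poly-A scaling 227 and 6766, so that rises were 51.5%, 6.84% and 3.25% of the calls, and 44.9% after quantile normalization. Of the 9 genes 3 rose and 2 fell as deposited, 0 and 6 after median centring, and 0 and 9 after poly-A scaling. The 2 falls became 0 with no filter, 0 without dsRNA 603-1116, 0 without the arrays with the lowest hybridization spike-ins, 1 without dsRNA 1321-1618, 1 with eBayes without a trend, and 0 to 2 without any 1 array. Of the other lipid genes 0 rose and 38 fell after median centring, and 0 rose and 44 fell after poly-A scaling; without any 1 array 6 to 12 rose and 14 to 20 fell. For single dsRNAs median centring and poly-A scaling called 4266 and 6146 probe sets with dsRNA 190-807 (2492 as deposited), 5935 and 7154 with dsRNA 603-1116 (3060 as deposited), and poly-A scaling called 5393 with dsRNA 1321-1618 (2671 as deposited). Of the 9 genes dsRNA 190-807 changed 2 as deposited, 4 after quantile normalization, 6 after median centring and 7 after poly-A scaling, and dsRNA 603-1116 changed 3, and 9 under both of the last scalings. Without any 1 array dsRNA 1321-1618 changed 0 to 4 of the genes and 1502 to 2885 probe sets, dsRNA 190-807 1 to 3 and 1789 to 2464, and dsRNA 603-1116 0 to 3 and 1712 to 3286. The F-test among dsRNAs called 4 probe sets, 39 after poly-A scaling, 8 with no filter and 0 to 14 without any 1 array.

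No paired analysis was possible because the groups share no usable numbers: the eGFP titles carry a number of the set and a number within it, the Tip60 titles a single number, and the labels do not say what any of them marks. With pairs of arrays whose titles share a stem as a random block (correlation 0.021) 1 of the 9 genes fell, and bbc lost its call (adjusted p = 0.0509). Where a probe set was dim, as for ATPCL, Desat2 and Lsd-2, signal near background limits the comparison.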
